A study of Rattus norvegicus with 20 samples.

Results

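The proteasome subunit genes of rat cortical neurons were compared between sprouting and non-sprouting cells of the same animals after stroke. They were taken by name: the array probes, controls aside, whose gene name reads Psma, Psmb, Psmc, Psmd, Psme, Psmf or Psmg followed by a digit, and the brightest probe stood for a gene. This gave 44 probes of 38 genes, and all 38 passed the filters, among 33092 genes tested. Of the 38, Psmc3ip is a gene of meiotic recombination that only shares the name. Psma3l, listed as a synonym of Psma3 in the current gene table, may read the same transcripts as Psma3. Both are described apart from the subunits, but the counts and medians of the 38 include them.

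The 10 rats were 2 months old, and each had a cortical stroke, and no uninjured animals are among the samples used here. A first fluorescent cholera toxin B tracer was injected into the cortex bordering the infarct, where axons sprout, and a second one was placed at the same spot after 21 days in 5 animals and after 7 days in 5 other animals. About 300 neurons called sprouting and about 300 called non-sprouting were captured by laser from each animal 7 days after the second tracer, and their RNA went through 2 rounds of T7 amplification. Which pattern of the tracers marked each cell type is not given in the sources used here. Both RNAs of an animal were hybridised together on 2 arrays with exchanged dyes, and the mean of the arrays is the animal's value, a log2 ratio of sprouting over non-sprouting neurons, where 1 unit is a doubling.

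The proteasome is the protease that degrades proteins marked with ubiquitin chains. Its core is a barrel in which outer rings of alpha subunits gate the entry and inner rings of beta subunits carry the proteolytic sites. A regulatory cap with an ATPase ring unfolds substrates, and other cap subunits bind and remove ubiquitin. Interferon exchanges the standard catalytic subunits for inducible ones such as Psmb9 and raises the activator made of Psme1 and Psme2. In neurons the proteasome works in synapses, axons and growth cones, where local degradation takes part in their remodelling.

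Per array the median signal was 98.7 to 344.7 intensity units in Cy5 and 133.9 to 281.4 in Cy3, and 40.3% to 94.6% of probes were well above background. The 12 neuron markers, among them Rbfox3, Snap25 and Slc17a7, were all above background in both cell types on both days, but so were all 14 oligodendrocyte, 12 astrocyte and 13 microglia and macrophage markers, so RNA of other cells was present. Differences in the number of cells of a type and in RNA per cell cannot be told apart in such captures. The 2 arrays of an animal correlated over all genes at 0.335 to 0.733 in 9 animals. In day 21 replicate 4 they correlated at -0.358, and over the 38 proteasome genes at -0.72, so that its arrays ran in opposite directions and its averaged ratios lie near 0. Without it the day 21 mean of each of the 38 genes moved by at most 0.06, the furthest being Psma7, and 3 means close to 0 changed sign.

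The proteasome genes were bright: 37 of the 38 probes were brighter than the median gene, and 37 were well above background on all 20 arrays in both cell types. The exception was Psmb6, which was above background on 19 arrays in non-sprouting neurons. One probe, Psmc5, was saturated on 1 array. All genes but Psma5, which lacks a value in day 7 replicate 3, were measured in all 10 animals.

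No proteasome gene passed an adjusted p of 0.05 in limma's test on either day. At day 21, 19 genes were higher and 19 lower in sprouting neurons, where 48.9% of all genes were higher. The median ratio of the 38 was 0.00 and 0 passed, against 0% of all genes. At day 7, 27 genes lay above 0 and 11 below, where 46.5% of all genes lay above 0. The median of the 38 was 0.035 against -0.005 over all genes, and 0 passed, against 0.00302% of all genes (1 of 33092). With each array centred on its median in place of loess, the day 7 median was -0.115 (7 genes higher and 31 lower), and the day 21 split was 10 higher and 28 lower. With the scanner's processed signals the day 21 split was 30 higher and 8 lower, and that of day 7 was 26 higher and 12 lower, so the direction of the group depends on the scaling. Per animal the median of the 38 genes was 0.03, -0.03, 0.04, -0.02 and 0.01 in day 21 replicates 1 to 5, and 0.00, 0.16, 0.14, -0.03 and -0.03 in day 7 replicates 1 to 5. The day 7 median was thus carried by replicates 2 and 3, in which 30 of 38 and 28 of 37 genes were higher, while in replicate 4 only 11 of 38 were.

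**Figure D1:**
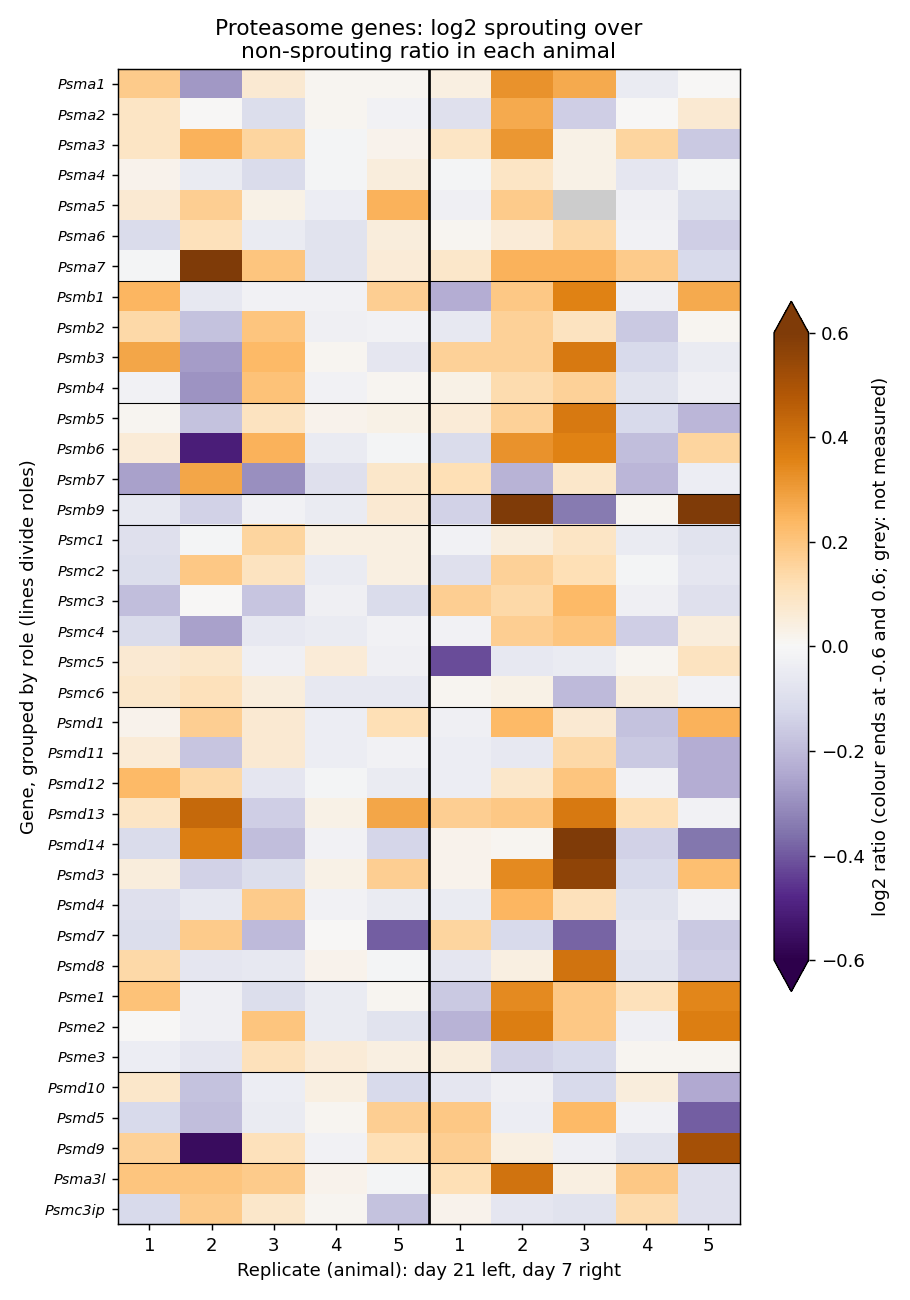
Log2 ratio of sprouting over non-sprouting neurons for each of the 38 genes (grouped by role) in each of the 10 animals, day 21 in the left columns and day 7 in the right ones. Brown is higher and purple lower in sprouting neurons, with colours ending at 0.6 in either direction. Day 7 replicates 2 and 3 are mostly brown under loess scaling (the direction turns with median centring), and day 21 replicate 4, with opposed arrays, is pale.

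At an unadjusted p under 0.05, 0 of 38 genes were past at day 21, where 5.8% of all genes were, and 2 were past at day 7, both higher, where 9.49% of all genes were (4.51% higher). The 2 genes of day 7 are 5.26% of the 38, a share near the background. Under loess scaling, the 95% intervals of the fit lay within a 1.41-fold difference for all 38 genes at day 21 and for 37 at day 7. They lay within 1.19-fold for 29 genes at day 21 and 24 at day 7. Psma4 had the narrowest interval and Psmb9 the widest. The intervals do not include the effect of scaling. Those of day 21 include replicate 4, whose opposed arrays average to ratios near 0. With arrays centred on their median, Psmc5 averaged -0.32 at day 7, outside its loess interval of -0.22 to 0.05.

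**Figure D2:**
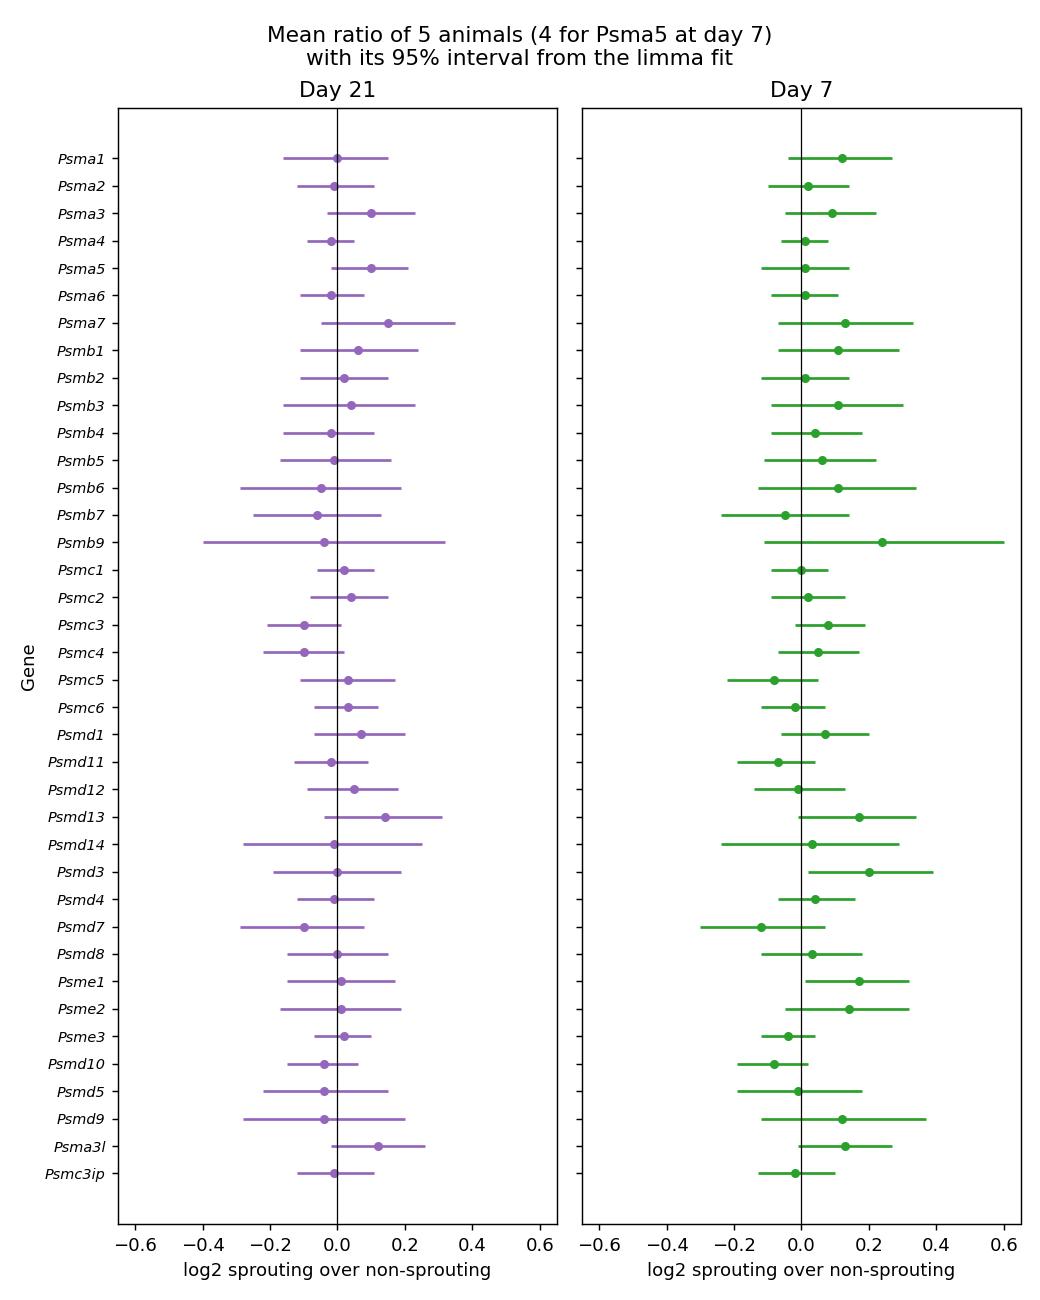
Mean log2 sprouting over non-sprouting ratio of each gene (points) under loess scaling with its 95% interval from the limma fit (bars), day 21 on the left and day 7 on the right. At day 21 every interval covers 0, and at day 7 those of Psmd3 and Psme1 do not, before adjustment.

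Among the alpha ring subunits, 3 of 7 were higher at day 21 and 7 of 7 at day 7, with day 7 means between 0.01 and 0.13. Their medians were close to 0 on both days, -0.002 at day 21 and 0.021 at day 7, and under median centring all 7 day 7 means were below 0. The largest mean belonged to Psma7, which was -0.01, 0.60, 0.20, -0.08 and 0.06 in the day 21 animals and 0.08, 0.25, 0.25, 0.18 and -0.12 in the day 7 animals. Its mean over both days was 0.14 (unadjusted p = 0.0501, adjusted p = 0.455 in limma), and 7 of 10 animals were above 0. Psma3 was 0.09, 0.25, 0.15, -0.01 and 0.02 at day 21, and 0.09, 0.31, 0.03, 0.15 and -0.16 at day 7. Psma3l, whose probe may read the same transcripts, was 0.20, 0.20, 0.18, 0.02 and -0.01 at day 21, and 0.12, 0.40, 0.04, 0.19 and -0.09 at day 7. At day 7 both probes were highest in replicate 2 and lowest in replicate 5, and at day 21 both were lower in replicates 4 and 5 than in the other animals. Psma5 was 0.07, 0.17, 0.03, -0.04 and 0.25 at day 21, and -0.03, 0.18, -0.03 and -0.10 in the 4 measured day 7 animals. The other alpha genes were close to 0: Psma1, Psma2, Psma4 and Psma6 averaged between -0.02 and 0.00 at day 21, and between 0.01 and 0.12 at day 7, with Psma1 the highest of them at day 7.

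The beta subunits with no catalytic site, Psmb1 to Psmb4, had a median ratio of 0.029 at day 21 and 0.074 at day 7. They varied together across animals: the mean correlation between pairs of these 4 genes over the 10 animals was 0.61, against 0.22 between the alpha subunits, 0.11 between all 38 genes and 0.00 between all genes tested. These are descriptions, since the genes share the same arrays and similar brightness. In day 21 replicate 2 all 4 were below 0, and in day 7 replicates 2 and 3 all 4 were above 0. Psmb3, for example, was 0.28, -0.27, 0.23, 0.01 and -0.07 at day 21, and 0.16, 0.16, 0.38, -0.12 and -0.05 at day 7. The means of Psmb1, Psmb2 and Psmb4 lay between -0.02 and 0.06 at day 21, and between 0.01 and 0.11 at day 7.

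The standard catalytic subunits of the core are Psmb5 (chymotrypsin-like site), Psmb6 (caspase-like) and Psmb7 (trypsin-like). Psmb5 was 0.01, -0.18, 0.10, 0.02 and 0.03 at day 21, and 0.06, 0.16, 0.38, -0.12 and -0.21 at day 7. Psmb6 was 0.06, -0.51, 0.25, -0.05 and -0.01 at day 21, and -0.11, 0.32, 0.36, -0.19 and 0.15 at day 7. Psmb7 was -0.26, 0.28, -0.30, -0.09 and 0.08 at day 21, and 0.12, -0.22, 0.08, -0.21 and -0.04 at day 7. Psmb5 and Psmb6 followed Psmb3 and Psmb4 from animal to animal (mean pairwise correlation 0.80 over 10 animals, a group put together after seeing the values), whereas at day 21 Psmb7 was below 0 in replicates 1 and 3 and above 0 in replicate 2, opposite to Psmb3. Over the core genes Psma1 to Psma7 and Psmb1 to Psmb7 measured in every animal, 13 in all, the mean pairwise correlation was 0.21. The means of all 3 were within their spread of 0: -0.01 ± 0.10, -0.05 ± 0.28 and -0.06 ± 0.24 for Psmb5, Psmb6 and Psmb7 at day 21, and 0.06 ± 0.23, 0.11 ± 0.25 and -0.05 ± 0.16 at day 7 (SD over animals).

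Psmb9, the interferon-inducible replacement of Psmb6, had the largest mean and the largest spread at day 7. It was -0.06, -0.14, -0.02, -0.05 and 0.07 at day 21, a mean of -0.04 ± 0.08, and -0.14, 0.91, -0.34, 0.01 and 0.77 at day 7, a mean of 0.24 ± 0.56 (SD, n = 5 animals each). Replicates 2 and 5 of day 7 stood far above the rest, on both of their arrays: 0.84 and 0.99 in replicate 2, and 0.59 and 0.96 in replicate 5. The 95% interval of the day 7 mean ran from -0.11 to 0.60, and its adjusted p was 0.638 in limma.

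The activator genes Psme1 and Psme2, whose products form the ring that caps the core after interferon, were high in the same animals. Psme1 was 0.21, -0.03, -0.10, -0.05 and 0.01 at day 21, and -0.16, 0.34, 0.19, 0.11 and 0.35 at day 7. Psme2 was 0.00, -0.03, 0.20, -0.05 and -0.08 at day 21, and -0.22, 0.37, 0.19, -0.03 and 0.37 at day 7. At day 7 both were highest in replicates 2 and 5 and lowest in replicate 1. This was not particular to them: Psmd1 was also highest in replicates 2 and 5 (0.23 and 0.25), and Psmb1 was also lowest in replicate 1 (-0.23). Of the 38 genes, 30 were above 0 in replicate 2 and 14 in replicate 5. In replicate 3, where Psme1 and Psme2 were both 0.19, Psmb9 had its lowest value, -0.34. Psme1 had a day 7 mean of 0.17 ± 0.21, a 1.12-fold higher level in sprouting neurons, with an unadjusted p of 0.0414 and an adjusted p of 0.516 in limma. Over the 10 animals Psmb9 correlated with Psme1 at 0.68 and with Psme2 at 0.70, and Psme1 with Psme2 at 0.75; without day 21 replicate 4 these were 0.68, 0.69 and 0.74. These 3 genes were set side by side after their values were seen, so the correlations are descriptions of these animals. Psme3, an activator of nuclear proteasomes that interferon does not raise, was -0.04, -0.07, 0.11, 0.06 and 0.04 at day 21, and 0.05, -0.14, -0.12, 0.01 and 0.01 at day 7, and did not follow them.

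Markers of other cells also varied between these animals. The median ratio of the 13 microglia and macrophage markers was -0.10, -0.16, -0.16, 0.01 and 0.02 at day 21, and -0.17, 0.46, -0.31, 0.10 and 0.06 at day 7. In day 7 replicates 1 to 5, 1, 11, 1, 11 and 9 of the 13 were higher in sprouting neurons. The median of the 12 astrocyte markers was -0.04, -0.14, -0.17, 0.00 and -0.25 at day 21, and -0.07, -0.03, -0.13, 0.03 and 0.47 at day 7, with 9 of 12 higher in day 7 replicate 5. The median of the 14 oligodendrocyte markers was 0.45, -0.20, -0.26, 0.01 and -0.13 at day 21, and -0.27, 0.20, -0.06, 0.69 and 0.86 at day 7. The summed microglia and macrophage signal of the 5 animals ranged over 16400 to 21300 in sprouting and 17700 to 23900 in non-sprouting neurons at day 21. It ranged over 13700 to 26700 in sprouting and 16500 to 23100 in non-sprouting neurons at day 7. None of these markers was at background, and their part in the ratios of Psmb9, Psme1 and Psme2 was not tested. Cxcl10, an interferon-induced chemokine chosen after its values were seen, was 0.41, -0.48, 0.07, 0.00 and -0.23 at day 21. At day 7 it was 0.62, 1.46, -0.04, -0.32 and 1.66, highest in replicates 2 and 5. It was also above 0 in day 7 replicate 1, where Psmb9 was -0.14, Psme1 -0.16 and Psme2 -0.22.

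**Figure D3:**
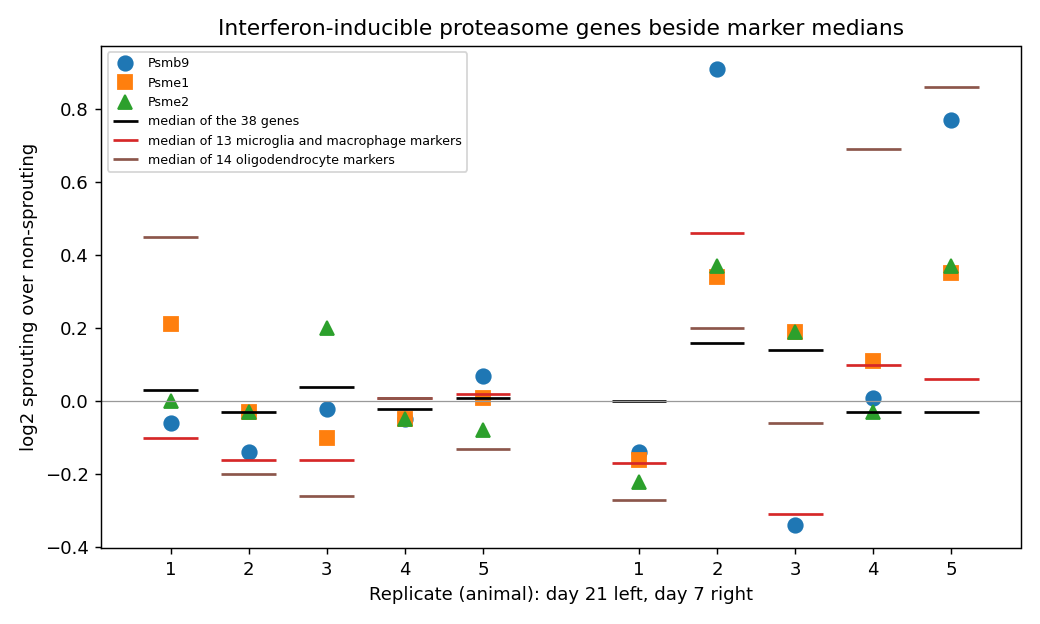
Log2 sprouting over non-sprouting ratio of Psmb9, Psme1 and Psme2 (symbols) in each animal, with the medians of the 38 proteasome genes, 13 microglia and macrophage markers and 14 oligodendrocyte markers (bars), day 21 left and day 7 right. Psmb9 reaches 0.91 and 0.77 in day 7 replicates 2 and 5, where Psme1 and Psme2 lie between 0.34 and 0.37.

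Because Psmb9, Psme1 and Psme2 were high together in these animals while Psmb5 and Psmb6 went with Psmb3 and Psmb4, their promoters are shown, 300 bases each from 250 before to 50 after the annotated start, from RefSeq on GRCr8, 5′ to 3′ on the gene's strand. Capitals mark matches, on either strand, to the antioxidant response element core TGACNNNGC, the interferon-stimulated response element core (GAAA, any 2 bases, GAAA) or the GC box GGGCGG.
Psmb9 (chr20:4668750-4669049, plus strand): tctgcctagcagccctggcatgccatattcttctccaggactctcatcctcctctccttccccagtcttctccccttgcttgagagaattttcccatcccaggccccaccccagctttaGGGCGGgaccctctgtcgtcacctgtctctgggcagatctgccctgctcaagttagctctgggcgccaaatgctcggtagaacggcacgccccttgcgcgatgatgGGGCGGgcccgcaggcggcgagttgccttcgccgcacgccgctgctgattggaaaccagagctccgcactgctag
Psme1 (chr15:33038721-33039020, plus strand): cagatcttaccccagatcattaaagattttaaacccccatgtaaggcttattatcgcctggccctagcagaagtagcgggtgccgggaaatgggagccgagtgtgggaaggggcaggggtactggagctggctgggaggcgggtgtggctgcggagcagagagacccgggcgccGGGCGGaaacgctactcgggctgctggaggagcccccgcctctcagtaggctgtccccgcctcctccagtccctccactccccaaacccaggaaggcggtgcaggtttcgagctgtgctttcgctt
Psme2 (chr15:33052702-33053001, minus strand): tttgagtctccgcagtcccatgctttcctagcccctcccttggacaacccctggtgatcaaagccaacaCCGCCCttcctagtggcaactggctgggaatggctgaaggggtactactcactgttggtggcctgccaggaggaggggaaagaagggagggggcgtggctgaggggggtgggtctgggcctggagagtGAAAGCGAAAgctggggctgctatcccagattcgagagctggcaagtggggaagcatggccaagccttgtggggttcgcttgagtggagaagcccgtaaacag
Psmb5 (chr15:32047330-32047629, minus strand): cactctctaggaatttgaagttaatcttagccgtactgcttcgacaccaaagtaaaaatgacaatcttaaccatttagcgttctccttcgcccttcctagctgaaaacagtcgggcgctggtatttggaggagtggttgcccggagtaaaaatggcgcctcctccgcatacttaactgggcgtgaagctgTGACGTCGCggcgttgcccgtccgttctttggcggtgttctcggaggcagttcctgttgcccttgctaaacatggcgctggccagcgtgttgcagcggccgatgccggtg
Psmb6 (chr10:55737638-55737937, plus strand): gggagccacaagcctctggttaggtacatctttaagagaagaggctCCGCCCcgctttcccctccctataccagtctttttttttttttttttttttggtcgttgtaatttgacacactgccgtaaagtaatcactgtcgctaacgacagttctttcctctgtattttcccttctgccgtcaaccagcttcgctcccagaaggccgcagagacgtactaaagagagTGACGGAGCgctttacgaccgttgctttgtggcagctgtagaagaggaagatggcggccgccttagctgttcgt

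The interferon-stimulated core was in the Psme2 window, with its first base 53 before the start, and was in neither the Psmb9 nor the Psme1 window. Psmb5 and Psmb6 each held the antioxidant core, to which Nfe2l1, the factor known to raise subunit genes when proteasome activity is low, can bind. Psmb3 and Psmb4, with which they varied, did not hold it, and Psmb3 held the interferon-stimulated core. Of the 38 genes 34 had a promoter in the table, the others being Psma7, Psma3l, Psmd12 and Psmd14. The antioxidant core was in 7 of the 34 promoters (20.6%), against 12.1% of all 33469 promoters of the same length. The interferon-stimulated core was in 4 (11.8%: Psma4, Psmb3, Psmd7 and Psme2), against 3.92% of all. The GC box was in 25 (73.5%), against 33.1%, and the CCAAT box was in 19 (55.9%), against 37.5%. The gamma-activated sequence TTCNNNGAA was in 3 (8.82%), against 8.87%. All were searched on both strands. A match describes letters in the window and not a bound site, and Nfe2l1 itself was 0.00, -0.09, 0.13, 0.02 and 0.19 at day 21, and 0.14, -0.21, 0.20, 0.20 and -0.01 at day 7.

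The ATPases Psmc1 to Psmc6 form the ring of the regulatory cap that unfolds substrates. Psmc3 was -0.19, 0.00, -0.17, -0.03 and -0.11 at day 21, a mean of -0.10 ± 0.08, and 0.17, 0.14, 0.23, -0.03 and -0.09 at day 7, a mean of 0.08 ± 0.14 (SD, n = 5 animals each). Psmc4 was -0.11, -0.26, -0.06, -0.05 and -0.02 at day 21, a mean of -0.10 ± 0.09, and -0.02, 0.17, 0.20, -0.15 and 0.05 at day 7, a mean of 0.05 ± 0.14. Of the 38 genes these were the ones below 0 in all 5 animals of a day, Psmc3 with 1 value that rounds to 0.00, and none was above 0 in all 5. That is 2 of 38 (5.26%) at day 21, where 4.09% of all genes were below and 4.23% above 0 in every animal. The Psmc3 value of day 21 replicate 4 averages arrays of opposite sign, 0.14 and -0.21. So does that of replicate 2, the value that rounds to 0.00, with 0.08 and -0.09. Its sign is thus not settled, with or without replicate 4. Without that animal Psmc3 averaged -0.12 ± 0.08 and Psmc4 -0.11 ± 0.10, and 2 of 38 genes were below and 3 above 0 in all 4 animals, where 7.42% of all genes were below and 7.48% above. At day 7 none of 37 genes had 1 sign in all 5 animals, where 3.54% of all genes were above and 5.1% below 0 in every animal.

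Psmc3 had the largest change of the ratio between days relative to its error. Its day 21 minus day 7 difference was -0.18 (95% interval -0.34 to -0.03), with an unadjusted p of 0.0238 and an adjusted p of 0.943 in limma, and its animals of the 2 days overlapped. With arrays centred on their median it was -0.06. Psmc4 differed by -0.15 between days, with an unadjusted p of 0.0701. The other ATPases did not share this: Psmc1 differed by 0.03, Psmc2 by 0.01, Psmc5 by 0.11 and Psmc6 by 0.05. Psmc5 was 0.07, 0.08, -0.03, 0.06 and -0.03 at day 21, and -0.42, -0.06, -0.05, 0.01 and 0.10 at day 7, with replicate 1 of day 7 far below the others and its probe saturated on 1 array. Psmc1, Psmc2 and Psmc6 stayed between -0.20 and 0.19 in every animal. The mean pairwise correlation of the 6 ATPases over the animals was 0.00.

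Of the 9 other cap subunits measured, 5 were higher at day 21 and 6 at day 7. Psmd3, a lid subunit, was 0.05, -0.14, -0.10, 0.03 and 0.17 at day 21, and 0.02, 0.34, 0.56, -0.12 and 0.22 at day 7. It had the lowest p of the 38 genes at day 7, with a mean of 0.20 ± 0.27, a 1.15-fold higher level in sprouting neurons, an unadjusted p of 0.0366 and an adjusted p of 0.507 in limma. Its mean was 0.11 with arrays centred on their median. Psmd13, another lid subunit, was 0.09, 0.43, -0.15, 0.03 and 0.28 at day 21, and 0.17, 0.19, 0.38, 0.12 and -0.02 at day 7. Psmd13 was thus above 0 in 8 of 10 animals, and over both days its mean was 0.15, with an unadjusted p of 0.02 and an adjusted p of 0.418 in limma.

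Psmd13 and Psma3l (mean over both days 0.13, adjusted p = 0.412) were the 2 genes past an unadjusted p of 0.05 in that comparison, where 11% of all genes were past it and 0 of the 38 passed adjustment (0% of all genes). The mean of both days put 26 genes above and 12 below 0, with a median of 0.016, where 46.9% of all genes were above 0. With arrays centred on their median, 7 were above and 31 below.

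The ubiquitin receptor Psmd4 was -0.09, -0.06, 0.18, -0.02 and -0.05 at day 21, and -0.05, 0.24, 0.11, -0.08 and -0.02 at day 7. The deubiquitinase of the lid, Psmd14, was -0.11, 0.37, -0.19, -0.02 and -0.13 at day 21, and 0.02, 0.01, 0.60, -0.14 and -0.35 at day 7. Each stood out in single animals, Psmd14 in both directions at day 7, and neither mean was beyond 0.04. Psmd7, the partner of Psmd14, was -0.10, 0.18, -0.20, 0.00 and -0.39 at day 21, and 0.15, -0.12, -0.38, -0.07 and -0.16 at day 7, the lowest day 7 mean of the 38 genes. Its probes disagreed: the brightest averaged -0.10 at day 21 and -0.12 at day 7, and the other probes averaged 0.19 and 0.08 at day 21, and 0.30 and 0.21 at day 7, so no direction can be given for Psmd7. The second probes of Psmc4 and Psmd1 lay within 0.03 of the first, that of Psmc6 within 0.06, and that of Psma6 was 0.09 at day 21 where the first was -0.02. The remaining cap subunits Psmd1, Psmd8, Psmd11 and Psmd12 averaged between -0.02 and 0.07 at day 21, and between -0.07 and 0.07 at day 7.

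The assembly chaperones Psmd5, Psmd9 and Psmd10, which help build the cap's base, had means of -0.04 each at day 21, and of -0.01, 0.12 and -0.08 at day 7. Psmd9 had the widest range of them, with -0.56 in day 21 replicate 2 and 0.51 in day 7 replicate 5. Psmc3ip, the gene that is no subunit, averaged -0.01 ± 0.15 at day 21 and -0.02 ± 0.09 at day 7 (SD, n = 5 animals each).

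Between days the sprouting over non-sprouting ratio was higher at day 21 for 14 genes and lower for 24, with a median difference of -0.027. Of all genes 52.4% had a higher ratio at day 21. None of the 38 passed adjustment (0% of all genes), and 1, Psmc3, was past an unadjusted p of 0.05, where 4.05% of all genes were. For none of the 37 genes measured in all animals did the days fail to overlap, where 0.761% of all genes did so. The split was 30 higher and 8 lower with arrays centred on their median, and 20 higher and 18 lower with the scan day as a block (median 0.006), so it has no settled direction. Within single scan days the medians of the 38 genes were -0.03 and 0.04 in the day 21 animals and -0.03 in the day 7 animal of scan 4, and 0.01 in the day 21 animal and -0.03 in the day 7 animal of scan 5. No other scan day held whole animals of both days.

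Within a cell type, levels at day 21 and day 7 were compared across separate animals on log2 intensities of each channel. In sprouting neurons 12 proteasome genes lay higher and 26 lower at day 21, where 41.5% of all genes lay higher. The median difference of the 38 was -0.092 against -0.051 over all genes. In non-sprouting neurons 13 of the 38 were higher and 25 lower, where 41% of all genes were higher. Their median difference was -0.066 against -0.049 over all genes. None of the 38 passed adjustment in either cell type (0% of all genes in both). At an unadjusted p under 0.05 there were 3 genes in sprouting neurons, where 8.91% of all genes were past it, and 1 in non-sprouting neurons, where 9.1% were.

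The 3 genes of sprouting neurons were Psma5, Psmd3 and Psmd9. Psma5 was 12.81, 12.85, 12.74, 12.86 and 12.81 in sprouting neurons at day 21, and 12.60, 12.40, 12.58 and 12.62 in the 4 animals measured at day 7, on the log2 intensity scale. All day 21 values lay above all day 7 values, a difference of 0.26 (adjusted p = 0.543 in limma). In non-sprouting neurons the Psma5 difference was 0.17, and there the days overlapped. Psmd3 was 8.33, 8.56, 8.61, 9.28 and 9.03 in sprouting neurons at day 21, and 9.46, 9.32, 9.22, 9.27 and 8.78 at day 7, a difference of -0.45 (adjusted p = 0.556 in limma) with overlapping animals. Psmd9 differed by -0.54 in sprouting neurons (adjusted p = 0.543) and by -0.38 in non-sprouting neurons. The 1 gene of non-sprouting neurons was Psmc3ip, at -0.29 in sprouting and -0.30 in non-sprouting neurons. Of the 37 genes measured in all 10 animals, none had levels that did not overlap between days. Over all genes 0.217% lay wholly higher and 1.36% wholly lower at day 21 in sprouting neurons, and 0.163% and 1.38% did in non-sprouting neurons.

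The levels of Psmb9 varied most in the day 7 animals. In day 7 replicate 2 the sprouting neurons had 8.39, the highest Psmb9 level of any sample, against 7.48 in the non-sprouting neurons. In day 7 replicate 5 the sprouting neurons had 7.08 and the non-sprouting neurons 6.31, the lowest level of any sample. The day 21 levels kept to a narrow range, 6.59 to 7.05 in sprouting neurons and 6.66 to 7.10 in non-sprouting neurons. The ratio of day 7 replicate 2 thus went with a high sprouting level and that of replicate 5 with a low non-sprouting level.

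**Figure D4:**
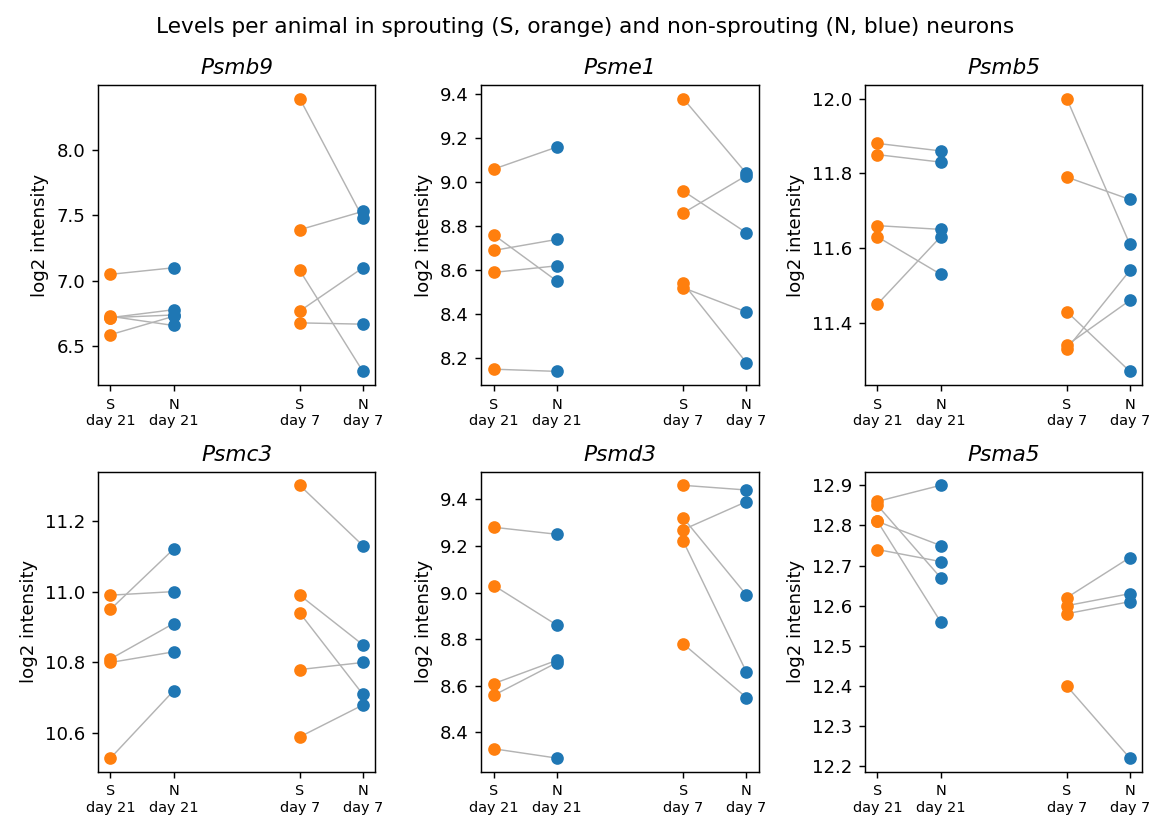
Log2 intensity of 6 proteasome genes in sprouting (S, orange) and non-sprouting (N, blue) neurons of each animal, day 21 left and day 7 right, with lines joining the cell types of an animal; each panel has its own scale, and probes are not comparable with each other. Psma5 in sprouting neurons does not overlap between the days, and Psmb9 spreads at day 7.

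The genes around the proteasome were taken as further lists, by their part in the ubiquitin pathway. Ubb, a polyubiquitin gene, was -0.03, 0.45, 0.09, -0.07 and 0.48 at day 21, and -0.15, 0.76, 0.47, 0.46 and 0.37 at day 7. Its day 7 mean was 0.38 ± 0.33 with an adjusted p of 0.459 in limma. Rps27a, a fusion of ubiquitin with a ribosomal protein, was 0.00, 0.14, 0.12, -0.10 and 0.03 at day 21, and -0.21, 0.44, 0.29, 0.40 and 0.44 at day 7. Its day 7 mean was 0.27 ± 0.27 with an adjusted p of 0.458 in limma. Both were above 0 in every day 7 animal but replicate 1, whereas the median of the 38 proteasome genes was highest in replicates 2 and 3.

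Neither of these genes, and none of the genes on the 4 lists of enzymes, ligases, deubiquitinases and receptors, passed adjustment on either day. The counts below are under loess scaling, where 48.9% of all genes were higher at day 21 and 46.5% at day 7. Of 27 enzymes of ubiquitin activation and conjugation, 12 were higher at day 21 and 15 at day 7. Ube2h had their lowest p, with a mean of 0.04 ± 0.08 at day 21 and -0.25 ± 0.18 at day 7 (adjusted p = 0.368 at day 7). Of 31 ubiquitin ligases, 18 were higher at day 21 and 15 at day 7. The cullin Cul4a averaged 0.11 ± 0.11 at day 21 and 0.17 ± 0.10 at day 7 (adjusted p over both days = 0.399 in limma). It was above 0 in 4 of 5 animals at day 21 and in all 5 at day 7, as were 3.54% of all genes at day 7. Of 20 deubiquitinases, 10 were higher at day 21 and 14 at day 7. Usp46 averaged -0.06 ± 0.14 at day 21 and 0.28 ± 0.25 at day 7 (adjusted p = 0.453 at day 7). Of 21 receptors, shuttles and regulators, 14 were higher at day 21 and 12 at day 7. The shuttle Rad23b was below 0 in all 5 day 7 animals, as were 5.1% of all genes. It averaged -0.21 ± 0.05 at day 7 (adjusted p = 0.529 in limma) and 0.06 ± 0.33 at day 21. The autophagy receptor Sqstm1 was below or at 0 in all 5 day 21 animals, where 4.09% of all genes were below 0 in every animal. It averaged -0.17 ± 0.17 at day 21 (adjusted p = 0.84 in limma) and 0.01 ± 0.15 at day 7.

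The scaling of the arrays moved the ratios of these genes, which are bright, and the cause was not tested. Their mean log2 intensity ranged from 6.91 for Psmb9 to 14.74 for Psmc5 with a median of 11.42, against 7.30 over all genes tested. With arrays centred on their median, the day 7 ratio was lower for brighter probes and reached -0.32 for Psmc5. At day 7, 4 genes were then below 0 at an unadjusted p under 0.05 and none passed adjustment (lowest adjusted p 0.372). These were 4 of 38 (10.5%), where 7.35% of all genes were below 0 at that threshold under the same scaling. The dye-swapped arrays of an animal had a median correlation of -0.09 over all genes under that scaling and of 0.67 under loess. Over the 38 genes the medians were 0.07 with median centring and 0.77 with loess. Psmb9 was scaled to nearly the same day 7 mean either way, 0.23 with median centring and 0.24 with loess.

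**Figure D5:**
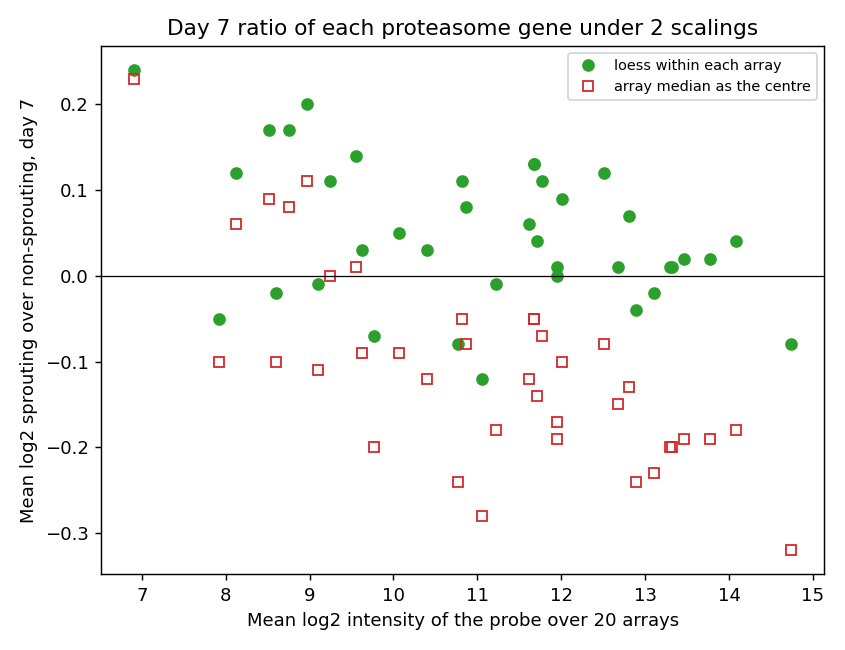
Mean day 7 log2 sprouting over non-sprouting ratio of each of the 38 genes against the mean log2 intensity of its probe, with loess within arrays (filled green circles, 27 genes above 0) and with arrays centred on their median (open red squares, 7 above 0). The scalings part most for the brightest probes.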

How the data were processed

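Per the file headers, Agilent Feature Extraction 9.1.3.1 wrote the deposited scanner files, whose unnormalized intensity values are the mean signal and local background of each spot; processed, dye-normalized signals stand beside them. The authors' deposited log2 ratios (Cy5 over Cy3, method not given in the sources used here) were an alternative; 20 columns of that table were not used.

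Background was corrected with normexp (offset 50) and ratios were normalized by loess within arrays, 2256 control spots having weight 0 (limma 3.58.1, R 4.3.3). Dye swaps were turned and averaged, and an animal's value needs both arrays. The probe filter asked for a signal clear of background on a share of 0.5 of the arrays in some cell type and day, and for 3 measured animals per day. One limma fit over 33092 genes, checked on simulated data, gave two-sided p-values adjusted by Benjamini-Hochberg, which measure the spread between animals. Levels came from each channel after loess and Aquantile. The number of animals, 5 per day, limits the precision.

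Members and lists were chosen with earlier results of these data known; 1 gene of the name pattern and some genes of the further lists are not reported here. Values per animal are given for the 5 members of lowest p per comparison, those of 1 sign in all 5 animals, and the catalytic, inducible, ATPase, Psmd4, Psmd14 and activator genes; of the other lists, up to 3 genes of lowest p per list and day. Psmb3, the day 7 values of Psmb1 and Psmd1, Cxcl10, Nfe2l1 and the grouping of Psmb9 with Psme1 and Psme2 were chosen after their values were seen. Of the 33092 genes 14465 had a current symbol through accession, symbol or synonym.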

Additional observations from a re-analysis of the deposited data

Results flagged for a closer look

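Of 46 groups of animals tested for a single value apart from the rest, 2 had one, and chance alone gives about 1 in 20. Psmd4, the ubiquitin receptor, was 0.18 in day 21 replicate 3 while the other animals lay between -0.09 and -0.02, a gap of 0.76 of the whole range. Psme2 was 0.20 in the same animal while the others lay between -0.08 and 0.00, a gap of 0.72 of the range. Both arrays of that animal gave a similar Psme2 ratio, 0.22 and 0.19. No cause was tested.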

How the results depend on the processing

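No proteasome gene passed the adjusted threshold under any setting run. The median ratio kept its value within the spread between animals except in these cases. With arrays centred on their median it was -0.115 at day 7, -0.082 over both days and 0.11 for the day 21 minus day 7 difference; the cause was not tested. With the scanner's processed signals it was 0.031 at day 21. Leaving out each animal in turn gave -0.008 to 0.019 at day 21, 0.012 to 0.069 at day 7, 0.002 to 0.03 over both days and -0.055 to 0.003 for the difference, which turned without day 7 replicate 3. For the levels it gave -0.13 to -0.052 in sprouting and -0.104 to -0.014 in non-sprouting neurons. Without day 21 replicate 4, whose arrays ran in opposite directions, the medians were -0.003 at day 21 and -0.019 for the difference. Without Psmc3ip and Psma3l, chosen after seeing the data, the day 7 median was 0.035, with 26 genes higher and 10 lower. At an unadjusted p under 0.05 in limma, 1 of these 36 genes was past over both days, where 11% of all genes were. In the non-sprouting levels 0 were past, where 9.1% of all genes were.

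With the replicate number as a block (replicate block) the medians were 0 at day 21, 0.035 at day 7 and -0.027 for the difference, with 0 proteasome genes past the threshold. Same-numbered animals of the separate cohorts deviated with correlations of -0.20 to 0.00, so the numbers do not pair them.

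With all 20 arrays and the animal as a random block, 403 genes of the array passed at day 7 (1 otherwise) and 509 over both days (0 otherwise), and the lowest adjusted p of a proteasome gene was 0.0803. The scan day moved the difference to 0.006. Psmb9 had the widest interval.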

Other observations

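Other proteasome genes stood on the array under other names and were reached by accession or synonym, 7 of them measured. Psmg2, an assembly chaperone of the core's alpha ring, was -0.16, -0.38, 0.04 and 0.08 in the 4 day 21 animals measured, and -0.21, -0.10, -0.09, -0.26 and -0.12 at day 7. Psmg2 was thus below 0 in all 5 day 7 animals, as were 5.1% of all genes. Its day 7 mean was -0.16 ± 0.08, with an adjusted p of 0.507 in limma. Its partner Psmg1 averaged 0.04 ± 0.12 at day 21 and 0.00 ± 0.10 at day 7. The cap scaffold Psmd2 averaged -0.09 ± 0.09 at day 21 and -0.07 ± 0.15 at day 7, and the lid subunit Psmd6 averaged 0.03 ± 0.09 at day 21 and 0.10 ± 0.20 at day 7.

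Psmb10, the inducible replacement of Psmb7, was 0.31, -0.50, 0.16, -0.05 and -0.10 at day 21, and -0.07, 0.22, -0.20, 0.05 and 0.32 at day 7. Its day 7 order, with replicates 5 and 2 highest and replicate 3 lowest, resembles that of Psmb9. Psmb11, known as the catalytic subunit of the thymus proteasome, had ratios between -0.12 and 0.10 in all animals, while its level was higher at day 21 by 0.75 in sprouting (adjusted p = 0.543 in limma) and by 0.79 in non-sprouting neurons (adjusted p = 0.508).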
